A study of Homo sapiens with 20 samples.

Results

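The genes described here are androgen-induced genes of prostate cells other than the kallikreins, measured in LNCaP, an established human prostate cancer line that answers to androgens. A list of 34 genes known for their induction by androgens was taken, and each gene was read from its single-symbol feature on the array, or the brightest one by mean log2 level where a gene had several. Of the 34 genes, 31 were measured, among 18417 genes in all. ACSL3, SORD and KCNN2 were not measured here. The measured genes of the list are called members below, and the rule that picked them uses no difference between groups. The list was, however, chosen with earlier results of these data known. Shares of members set beside shares of all genes below are therefore descriptions, and the list was not tested.

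The series comprised 20 arrays in 7 groups, with 3 arrays in each group except early S, which had 2, and the series text names DHT stimulation of cells held at different cell cycle stages as its subject. Control cells spent 72 h in medium that is named CDT in the labels, with ethanol, the vehicle, for 3 h, and form the group CDT. The CDT+DHT group had 72 h of CDT and then 3 h of 10 nM dihydrotestosterone (DHT), a potent natural androgen. The other 5 groups were grown in hormone-proficient medium, arrested with a drug over 24 h and stimulated with 10 nM DHT, also for 3 h. Early G1 cells had 0.5 uM PD-0332991, an inhibitor of the kinases CDK4 and CDK6. Late G1 cells had 5 ug/mL roscovitine, an inhibitor of several cyclin-dependent kinases, among them kinases that act on RNA polymerase II. Early S cells had 2 ug/mL aphidicolin, a DNA polymerase inhibitor, and late S cells had 1 mM hydroxyurea, which depletes deoxynucleotides. G2/M cells had 15 h of 2 ug/mL aphidicolin, a washout, and 9 h of 50 ng/mL nocodazole, which blocks the spindle. No group had a drug without DHT, or hormone-proficient medium without a drug, among the arrays analysed here, so drug, stage and medium cannot be told apart in a comparison of an arrest with CDT or CDT+DHT.

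Androgens act through a nuclear hormone receptor that on binding its ligand enters the nucleus, binds DNA and recruits coactivators to its target genes. Its direct targets in prostate epithelium include secreted proteases and also kinases, transporters, metabolic enzymes and transcription regulators, which are the genes followed here. Many of them rise within hours of hormone in prostate cancer lines, while others build up over a day, and several also answer to the glucocorticoid receptor, which reads the same DNA element.

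The promoters of a few members are shown because the members are grouped by their answer to a DNA-binding receptor. HERC3 and HOMER2 are the members that passed the test in a comparison, RHOU was the most separated member after DHT alone, and STK39 was chosen because its promoter was the single one with a match to the motif searched. Each sequence is the 250 bases before the RefSeq start in GRCh38.p14, read 5′ to 3′ on the gene's strand: HERC3 at chr4:88523593-88523842 (plus strand), HOMER2 at chr15:82952721-82952970 (minus strand, at a start that lies inside the annotated gene), RHOU at chr1:228644397-228644646 (plus strand) and STK39 at chr2:168247596-168247845 (minus strand). Capitals mark the motif.
HERC3: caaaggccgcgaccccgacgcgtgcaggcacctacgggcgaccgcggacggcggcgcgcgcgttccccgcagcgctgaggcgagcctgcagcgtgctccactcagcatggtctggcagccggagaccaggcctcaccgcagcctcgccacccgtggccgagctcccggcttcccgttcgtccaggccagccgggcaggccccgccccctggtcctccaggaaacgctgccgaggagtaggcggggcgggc
HOMER2: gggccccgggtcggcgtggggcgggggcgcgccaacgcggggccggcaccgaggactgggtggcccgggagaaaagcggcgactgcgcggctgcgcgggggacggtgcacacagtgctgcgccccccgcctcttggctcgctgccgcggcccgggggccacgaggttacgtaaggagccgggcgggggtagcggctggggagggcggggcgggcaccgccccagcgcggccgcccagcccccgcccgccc
RHOU: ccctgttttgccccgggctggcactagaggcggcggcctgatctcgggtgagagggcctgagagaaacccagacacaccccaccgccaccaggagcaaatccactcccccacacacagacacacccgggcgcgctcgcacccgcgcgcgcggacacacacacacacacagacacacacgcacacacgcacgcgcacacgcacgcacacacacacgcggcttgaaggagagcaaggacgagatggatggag
STK39: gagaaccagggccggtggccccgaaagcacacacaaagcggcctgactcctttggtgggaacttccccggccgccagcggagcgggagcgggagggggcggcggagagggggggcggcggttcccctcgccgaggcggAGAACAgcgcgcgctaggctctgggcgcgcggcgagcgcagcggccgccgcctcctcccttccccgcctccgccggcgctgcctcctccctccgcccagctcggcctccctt
The motif was the palindromic androgen response element, the arm AGAACA and the arm TGTTCT with NNN between them, or either arm alone. The arms lie within the whole element and are each other's reverse complement, so both strands were covered. Of the 31 measured members, 26 matched the RefSeq promoter table. An arm was found in 1 of the 26 (3.85%), STK39, where AGAACA begins 112 bases before the start, and in 4338 of all 34935 promoters of the same length (12.42%). The whole element was in 0 of the 26 and in 1 of the 34935 (0.003%). A match is a description of letters, and these windows do not hold the distal enhancers where the receptor is known to bind most often.

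The values are array intensities, given below as log2(intensity + 1) and called levels. Differences between groups are differences of mean log2 levels with the standard error (SE) of the fit. They were tested with limma over all 18417 genes, and a gene rose or fell only where its Benjamini-Hochberg adjusted p was below 0.05. Whether the replicates came from separate cultures is not in the labels, and p-values then reflect only how far these arrays spread. Adding 1 to the intensity makes differences of dim genes smaller than they are. Of 620 member values, 30 were below an intensity of 1. They came from 11 members, 8 of 93 values in CDT, 8 of 93 in CDT+DHT and 14 of 434 in the arrests. Levels are compared between groups for a gene and not between genes.

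The array medians of intensity ran from 5.44 to 9.09, and the mean level over all genes from 3.11 to 3.87. Of the luminal prostate markers, 6 of 8 were measured (KRT8, KRT18, EPCAM, CDH1, HOXB13 and KLK3), with a summed intensity of 759.4 to 2639 on every array, highest in early G1. The sum includes KLK3, itself a hormone target and highest in early G1, while KRT8, KRT18 and HOXB13 had their highest group means in CDT+DHT (6.81, 7.08 and 7.35). EPCAM and CDH1 went the other way, with group means of 7.72 and 4.81 in CDT+DHT against 8.38 and 6.14 in CDT. Basal epithelial markers (KRT5, KRT14 and KRT15, 3 of 4 measured) summed to 36.32 to 55.42 in CDT and CDT+DHT and to 10.36 to 42.01 in the arrests. The 5 stromal markers summed to 21.75 to 91.2 and the 4 leukocyte markers to 17.48 to 53.67, and the part of these sums in the members' results was not tested. In bulk RNA, fewer cells of a type and less RNA per cell cannot be told apart. Arrays of the same group differed from one another along 1 shared axis, which is the leading principal component of what is left over the brighter genes once group means are removed. Late S replicate 1 lay at -1.89 on it, late S replicate 2 at 1.79, CDT replicate 1 at -1.70 and early G1 replicate 2 at -1.63. In 7 of 7 groups the array with the lowest mean over the members was also the lowest on this axis, and the part of the axis in the results was not tested.

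As a group, the members were lowest in CDT and CDT+DHT and higher in the arrests. The mean level over the 31 members was 3.27 ± 0.51 in CDT (SD, n = 3) and 3.48 ± 0.49 in CDT+DHT (n = 3). It reached 4.91 ± 0.46 in early G1, 4.77 ± 0.14 in G2/M, 4.35 ± 0.91 in late S and 3.99 ± 0.27 in late G1 (n = 3 each), and 4.96 ± 0.67 in early S (n = 2). The CDT arrays spanned 2.81 to 3.82 and overlapped with those of CDT+DHT, of late G1 (3.73 to 4.27) and of late S (3.37 to 5.18). The early G1 (4.39 to 5.20), early S (4.49 and 5.44) and G2/M (4.66 to 4.93) arrays lay above every array of CDT and CDT+DHT. By group mean, 13 of the 31 members were lowest in CDT and 9 in CDT+DHT, and 11 were highest in early S, 8 in G2/M and 7 in early G1. Among the 5 arrests, 17 members were lowest in late G1 and 9 in late S.

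**Figure D1:**
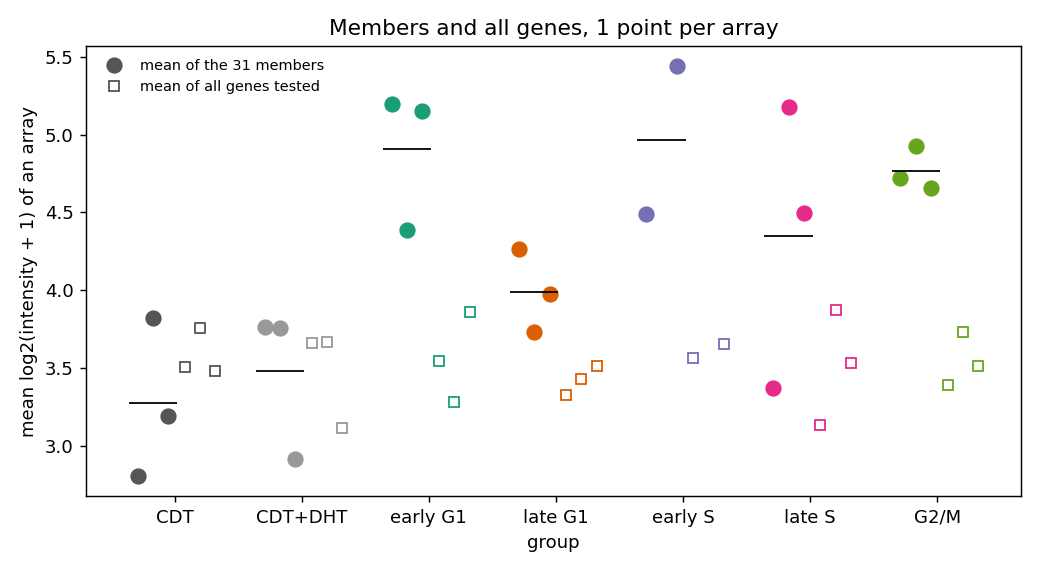
Mean log2(intensity + 1) over the 31 measured members on each of the 20 arrays, by group, with the mean over all 18417 genes for comparison. The members' mean lies between 2.81 and 3.82 on the CDT arrays and between 4.66 and 4.93 on the G2/M arrays, while the mean over all genes stays between 3.11 and 3.87.

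**Figure D2:**
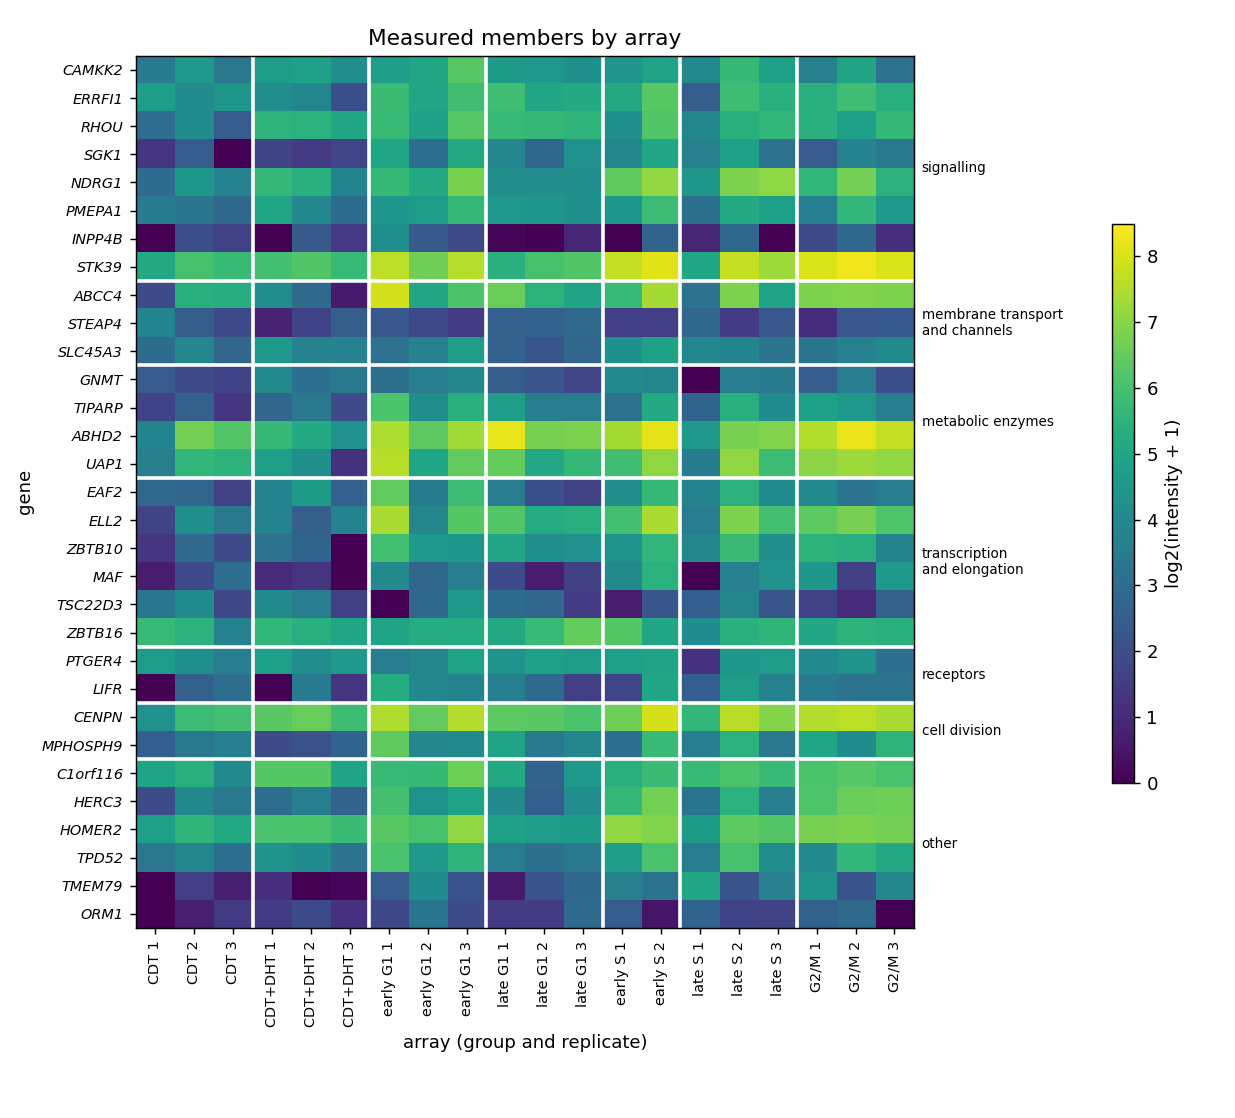
Heat map of the 31 members (rows) on the 20 arrays (columns, by group), each as its log2(intensity + 1), not centred by gene. Within a row, most members have a lower mean on the CDT arrays than on the early G1, early S and G2/M arrays. STEAP4 and TSC22D3 do not follow that pattern, and PTGER4 follows it only in early S.

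DHT for 3 h in CDT medium was followed by small differences that did not pass the test in any member. The median difference of the members, CDT+DHT minus CDT, was 0.34, against -0.10 over all genes, and 21 of 31 members were above 0 against 44.8% of all genes. No member passed in limma (0% of all genes passed as higher), 1 member was higher at an unadjusted p below 0.05, and 3.15% of all genes were higher at that p. That count was 3 without CDT+DHT replicate 3 and 2 without any 1 of the late S arrays. Leaving out CDT replicate 2 moved the median to 0.58 and leaving out CDT+DHT replicate 3 moved it to 0.51. With a pseudocount of 16 in place of 1, which weighs dim genes less, it was 0.10.

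RHOU, a small GTPase that acts on the cytoskeleton, was the member with an unadjusted p below 0.05. Its level was 3.04, 4.10 and 2.47 in CDT and 5.51, 5.43 and 5.11 in CDT+DHT. Every DHT array lay above every CDT array, and the difference was 2.15 ± 0.60 (adjusted p = 0.696). GNMT, which methylates glycine and so uses up S-adenosylmethionine, stood at 2.44, 1.98 and 1.70 in CDT and 4.05, 3.11 and 3.42 in CDT+DHT, a difference of 1.49 ± 0.72 (adjusted p = 0.717). HOMER2, a scaffold protein best known from synapses, stood at 4.80, 5.57 and 5.16 in CDT and 6.08, 6.08 and 5.80 in CDT+DHT, a difference of 0.81 ± 0.49 (adjusted p = 0.763). These 3 were the members whose arrays did not overlap between the groups, beside 7.81% of all genes. The count was 9 without CDT replicate 2, 5 without CDT replicate 3 and 12 without CDT+DHT replicate 3.

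Of the 31 members, 10 had a difference below 0 after DHT in CDT medium, and their arrays overlapped. The differences were -1.67 ± 1.05 for ABCC4, an exporter of cyclic nucleotides and drugs, and -1.50 ± 0.94 for UAP1, which makes UDP-N-acetylglucosamine. ABCC4 stood at 1.98, 5.41 and 5.31 in CDT and 4.15, 2.93 and 0.62 in CDT+DHT. UAP1 stood at 3.64, 5.63 and 5.51 in CDT and 4.79, 4.24 and 1.24 in CDT+DHT. CDT replicate 1 was the lowest of the controls in both genes and CDT+DHT replicate 3 was the lowest of all arrays. MAF, ERRFI1, STEAP4, MPHOSPH9, ABHD2, TMEM79, LIFR and ZBTB10 were the other members below 0.

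Set against CDT, the 6 groups that had DHT were higher in nearly all members when averaged. The median difference was 1.15 over the members and -0.08 over all genes, and 29 of 31 members were above 0, STEAP4 and TSC22D3 being the other two. No member passed in limma (0.0109% of all genes passed as higher), and 15 were higher at an unadjusted p below 0.05, 8 without CDT replicate 1, against 2.63% of all genes. RHOU had the lowest adjusted p, with a difference of 2.16 ± 0.46 (adjusted p = 0.148), and 16 of its 17 DHT arrays lay above every CDT array. TIPARP, a mono-ADP-ribosyltransferase, also had 16 of 17 DHT arrays above every CDT array. No member had all 17 above, beside 0.0869% of all genes that did. Without CDT replicate 2 there were 4 such members, and without CDT+DHT replicate 3 or late S replicate 1 there was 1.

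Each arrest was then compared with CDT, a set of 5 comparisons that share the 3 CDT arrays and so are not independent of one another. The members' median difference from CDT was 1.93 in early S, 1.65 in early G1, 1.60 in G2/M, 1.01 in late S and 0.81 in late G1. The median over all genes was between -0.15 in late G1 and 0.07 in early S. The early S median was 1.28 without early S replicate 2. The late S median was 1.55 without late S replicate 1 and 0.42 without late S replicate 2. The late G1 median was 0.36 without CDT replicate 1 and 0.49 without late G1 replicate 1.

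No member passed the test in an arrest against CDT, where 0.00543% (early G1 and late G1), 0.0109% (early S), 0.0489% (G2/M) and 0.0977% (late S) of all genes passed as higher. At an unadjusted p below 0.05, 18 members were higher in G2/M (2.8% of all genes), 18 in early S (2.57%), 17 in early G1 (2.14%), 9 in late S (2.6%) and 6 in late G1 (2.41%). Without CDT replicate 1 the early G1 and G2/M counts were both 11, without early S replicate 2 the early S count was 7, and the late S count was 17 without late S replicate 1 and 5 without late S replicate 2. All arrays of the arrest lay above all CDT arrays in 22 members in early S (11% of all genes), 20 in early G1 (3.21%), 20 in G2/M (6.64%), 10 in late G1 (5.52%) and 7 in late S (4.01%). Early S has 2 arrays, so separate arrays are more frequent there in all genes. The late S count was 22 without late S replicate 1 and 13 without CDT replicate 2. STEAP4 in early S was the single case with all arrays below those of CDT, where 11% of all genes were so placed.

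**Figure D3:**
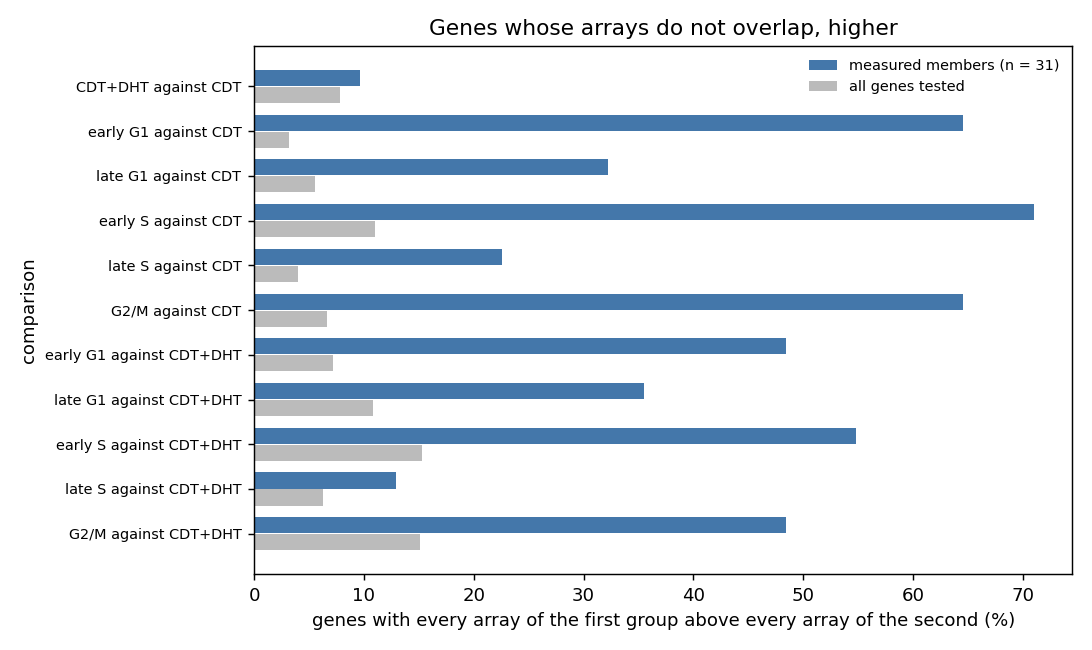
Share of the 31 members and of all 18417 genes, in percent, whose arrays all lie above those of the compared group, for CDT+DHT against CDT and each arrest against CDT and against CDT+DHT. The members' shares lie above those of all genes in each of the 11 comparisons plotted, by least in CDT+DHT against CDT (9.68% against 7.81%) and late S against CDT+DHT (12.9% against 6.29%). The smallest member counts are 3 (CDT+DHT against CDT) and 4 (late S against CDT+DHT).

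Among the signalling members (8 measured), all 8 were above 0 against CDT in early G1, early S, late S and G2/M, and 7 of 8 in late G1. SGK1, a kinase downstream of phosphoinositide signalling that is also a classic glucocorticoid target, stood at 1.31, 2.47 and 0.02 in CDT. The early G1 arrays stood at 5.01, 3.06 and 5.15, the early S arrays at 3.90 and 5.03 and the late S arrays at 3.69, 4.86 and 3.16. All of these arrays were above the CDT arrays, and the differences were 3.14 ± 0.70 (adjusted p = 0.44), 3.20 ± 0.78 (adjusted p = 0.365) and 2.64 ± 0.70 (adjusted p = 0.327) in that order. The lowest CDT value of SGK1 is an intensity near 0. RHOU was at 5.77, 5.68 and 5.53 in late G1, again above every CDT array, with a difference of 2.45 ± 0.60 (adjusted p = 0.137). PMEPA1, an inhibitor of transforming growth factor beta signalling, was above every CDT array on 13 of 14 arrest arrays, and CAMKK2, a calcium-dependent kinase that activates AMPK, on 8 of 14. Such counts over the 14 arrest arrays, here and below, were not taken over all genes.

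The members of transcription and elongation (6 measured) had a median difference from CDT of 2.68 in early S, 2.18 in early G1 and 1.43 in G2/M, and of 1.41 in late S, with 5 of 6 above 0 in each. In late G1 the median was 0.40, with 3 of 6 above 0. ELL2, a subunit of complexes that speed RNA polymerase II elongation, stood at 1.73, 4.23 and 3.40 in CDT. Its levels were 5.97 and 7.41 in early S, 6.40, 6.75 and 6.16 in G2/M and 6.21, 5.23 and 5.34 in late G1. None of these arrays reached down to the CDT range, and the differences were 3.57 ± 0.98 (adjusted p = 0.589), 3.32 ± 0.88 (adjusted p = 0.231) and 2.47 ± 0.88 (adjusted p = 0.366). ELL2 was the only measured member with several features, of which the brighter was used. ZBTB10, a zinc finger repressor, was above every CDT array on 14 of 14 arrest arrays. Its levels were 1.35, 2.94 and 1.93 in CDT, 5.92, 4.56 and 4.47 in early G1, 5.00, 4.25 and 4.30 in late G1, 3.92, 5.78 and 4.23 in late S and 5.49, 5.34 and 3.81 in G2/M. The lowest of its differences from CDT that are named here was 2.44 ± 0.78 (adjusted p = 0.281), and the highest 2.91 ± 0.78 (adjusted p = 0.624). EAF2, a partner of ELL proteins, was above every CDT array on 12 of 14 arrest arrays.

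Among the metabolic enzymes (4 measured), all 4 were above 0 in every arrest against CDT. TIPARP stood at 1.72, 2.61 and 1.35 in CDT and 6.08, 4.21 and 5.37 in early G1, a difference of 3.32 ± 0.72 (adjusted p = 0.44), and 14 of 14 arrest arrays were above every CDT array. ABHD2, a lipid hydrolase, was above every CDT array on 12 of 14 arrest arrays, and UAP1 on 11 of 14. Both members of cell division, CENPN, which binds centromeric nucleosomes, and MPHOSPH9, a centrosomal protein, were above 0 in every arrest against CDT. CENPN was above every CDT array on 13 of 14 arrest arrays and MPHOSPH9 on 10 of 14.

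HERC3, a ubiquitin ligase of the HECT family, had the largest difference of the members with separate arrays in G2/M against CDT. It stood at 1.94, 3.96 and 3.39 in CDT, 5.67 and 6.71 in early S and 6.15, 6.57 and 6.62 in G2/M. Both arrests lay above all CDT arrays, by 3.09 ± 0.75 (adjusted p = 0.365) and 3.35 ± 0.67 (adjusted p = 0.0567), and neither passed. TMEM79, a membrane protein of the secretory pathway, had the largest such difference in late S. It stood at 0.01, 1.56 and 0.76 in CDT and 5.05, 2.18 and 3.70 in late S, a difference of 2.87 ± 0.79 (adjusted p = 0.354). Late S replicate 1, on which most members were low, was the array with the highest TMEM79 of all 20.

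**Figure D4:**
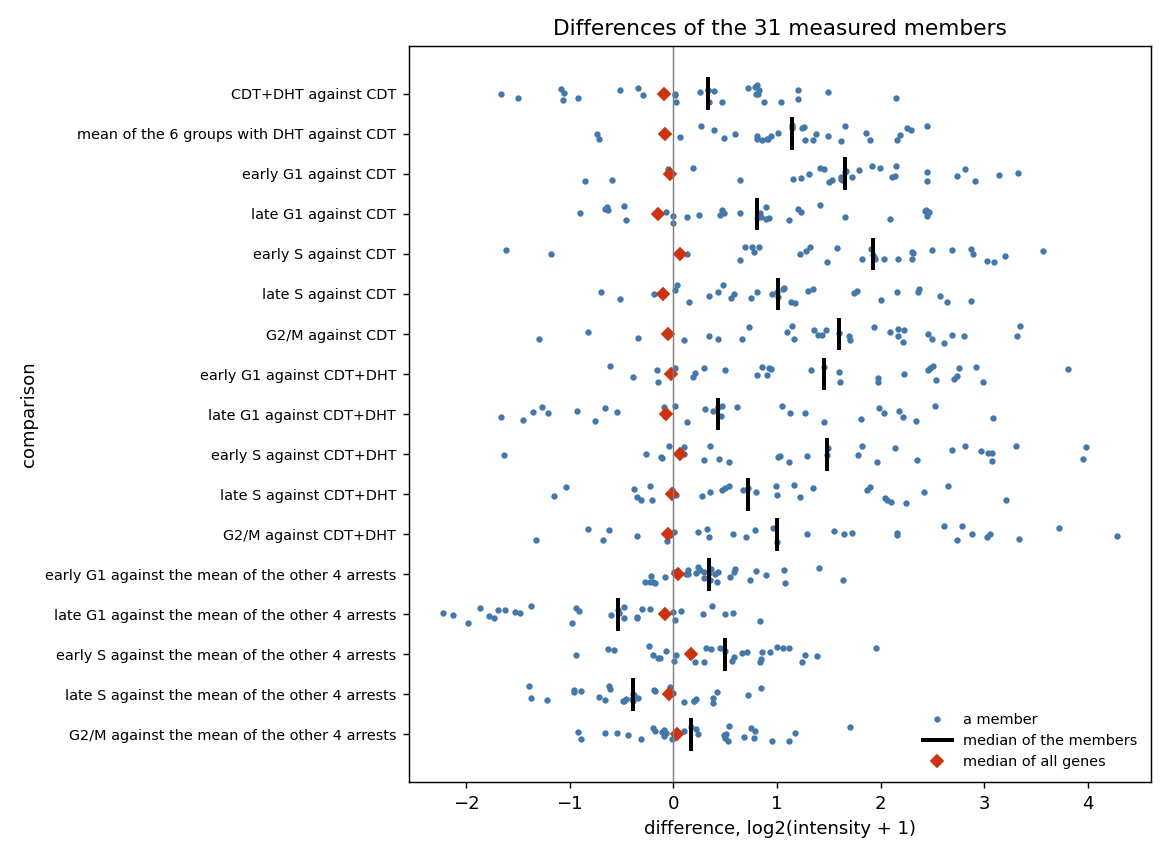
Differences on the log2(intensity + 1) scale in the 17 comparisons (rows), 1 point per member, with a bar at the median over the members and a diamond at the median over all genes. Against CDT the members' medians run from 0.34 in CDT+DHT to 1.93 in early S, and among the arrests the late G1 median is -0.54.

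Comparisons of the arrests with CDT+DHT hold the dose and time of the added DHT constant and differ in drug and medium, and all 5 share the 3 CDT+DHT arrays. Because the arrested cells were in hormone-proficient medium and the CDT+DHT cells in CDT, hormone exposure before the DHT was not matched. The members' median difference was 1.48 in early S, 1.45 in early G1, 1.00 in G2/M, 0.72 in late S and 0.43 in late G1, against medians over all genes of -0.07 (late G1) to 0.06 (early S). The early S median was 0.82 without early S replicate 2. The late S median was 1.17 without late S replicate 1 and 0.33 without late S replicate 2. The late G1 median was 0.23 without CDT+DHT replicate 3 and 0.18 without late G1 replicate 3. All arrays of the arrest lay above those of CDT+DHT in 17 members in early S (15.3% of all genes), 15 in early G1 (7.16%), 15 in G2/M (15.1%), 11 in late G1 (10.8%) and 4 in late S (6.29%). The late S count was 16 without late S replicate 1 and 8 without CDT+DHT replicate 2.

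HERC3 rose in G2/M against CDT+DHT and was the 1 member of 31 that passed there, where 0.271% of all genes passed as higher. It stood at 3.05, 3.63 and 2.68 in CDT+DHT and 6.15, 6.57 and 6.62 in G2/M, groups that did not overlap. The difference was 3.33 ± 0.67, 10.1-fold, with an adjusted p of 0.0376. The call did not hold with 1 array fewer in 8 cases. Its adjusted p was 0.104, 0.086 and 0.166 without CDT+DHT replicates 1, 2 and 3, and 0.143, 0.0932 and 0.152 without G2/M replicates 1, 2 and 3. It was 0.0528 without CDT replicate 3, 0.0558 without early G1 replicate 3, and 0.0602 when every feature of the array was tested.

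No member passed against CDT+DHT in the other 4 arrests, where 0% (early G1 and early S), 0.0271% (late G1) and 0.0543% (late S) of all genes passed as higher. At an unadjusted p below 0.05 the members that were higher numbered 15 in early G1 (5.22% of all genes), 14 in G2/M (8.88%), 13 in early S (5.03%), 8 in late G1 (5.51%) and 8 in late S (4.75%). In late G1, 3 were lower (8.5%), and 0.489% of all genes passed as lower. The early S count was 7 without early S replicate 2, the late G1 count 5 without CDT+DHT replicate 3, and the late S count 14 without late S replicate 1, 3 without late S replicate 2, 4 without late S replicate 3 and 5 without CDT+DHT replicate 3.

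ABCC4 had the largest difference from CDT+DHT in early G1, late G1, early S and G2/M among members with separate arrays. Its early G1 arrays stood at 7.94, 5.04 and 6.13, those of late G1 at 6.59, 5.41 and 4.96, of early S at 5.74 and 7.37 and of G2/M at 6.84, 6.89 and 6.81. The 3 G2/M arrays were nearly equal, while the CDT+DHT arrays given above spread over several log2 units. The differences were 3.80 ± 1.05 (adjusted p = 0.456), 3.09 ± 1.05 (adjusted p = 0.19), 3.98 ± 1.17 (adjusted p = 0.438) and 4.28 ± 1.05 (adjusted p = 0.0758) in that order. The mean of ABCC4 was also higher in CDT than in CDT+DHT, though the arrays overlapped (adjusted p = 0.776 in limma). CDT+DHT replicate 3, the lowest array in ABCC4, also had the lowest array median of intensity (5.44). The ABCC4 differences from CDT were smaller, at 2.14 ± 1.05 in early G1 and 2.61 ± 1.05 in G2/M.

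UAP1 was also high in the arrests. It stood at 7.58, 4.99 and 6.46 in early G1, 6.50, 5.12 and 5.67 in late G1 and 7.03, 7.26 and 7.13 in G2/M, above every CDT+DHT array. The differences were 2.92 ± 0.94 (adjusted p = 0.506), 2.34 ± 0.94 (adjusted p = 0.27) and 3.72 ± 0.94 (adjusted p = 0.0823). ZBTB10 was above every CDT+DHT array on 14 of 14 arrest arrays, as were SGK1 and MPHOSPH9. The share of all genes so placed was not counted. ZBTB10 stood at 3.25, 2.73 and 0.01 in CDT+DHT, where the lowest array is an intensity near 0. Its differences were 2.99 ± 0.78 in early G1, 2.52 ± 0.78 in late G1 and 2.65 ± 0.78 in late S.

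MAF, a leucine zipper transcription factor, also had separate arrays in early S. It stood at 1.03, 1.28 and 0.02 in CDT+DHT and 4.04 and 5.43 in early S, a difference of 3.96 ± 1.08 (adjusted p = 0.42). The CDT+DHT values are near or below an intensity of 1, and with a pseudocount of 16 the difference was 1.35. In late S, TMEM79 stood at 1.19, 0.01 and 0.10 in CDT+DHT and differed by 3.21 ± 0.79 (adjusted p = 0.148), and SGK1, at 1.74, 1.45 and 1.78 in CDT+DHT, differed by 2.25 ± 0.70 (adjusted p = 0.328). ELL2 stood at 3.80, 2.56 and 3.78 in CDT+DHT and differed by 3.31 ± 0.98 (adjusted p = 0.443) in early S.

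In late G1, 3 members had all arrays below those of CDT+DHT, beside 14% of all genes. SLC45A3, a transporter known as prostein that marks prostate epithelium, stood at 4.53, 3.80 and 3.78 in CDT+DHT and 2.66, 2.27 and 2.82 in late G1, a difference of -1.45 ± 0.50 (adjusted p = 0.195). GNMT stood at 2.50, 2.25 and 1.76 in late G1, a difference of -1.36 ± 0.72 (adjusted p = 0.413), and HOMER2 at 4.85, 4.68 and 4.63, a difference of -1.26 ± 0.49 (adjusted p = 0.248). These 3 did not pass, and 2 of them, GNMT and HOMER2, are among the 3 members whose CDT+DHT arrays lay above CDT, a comparison that uses the same CDT+DHT arrays.

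**Figure D5:**
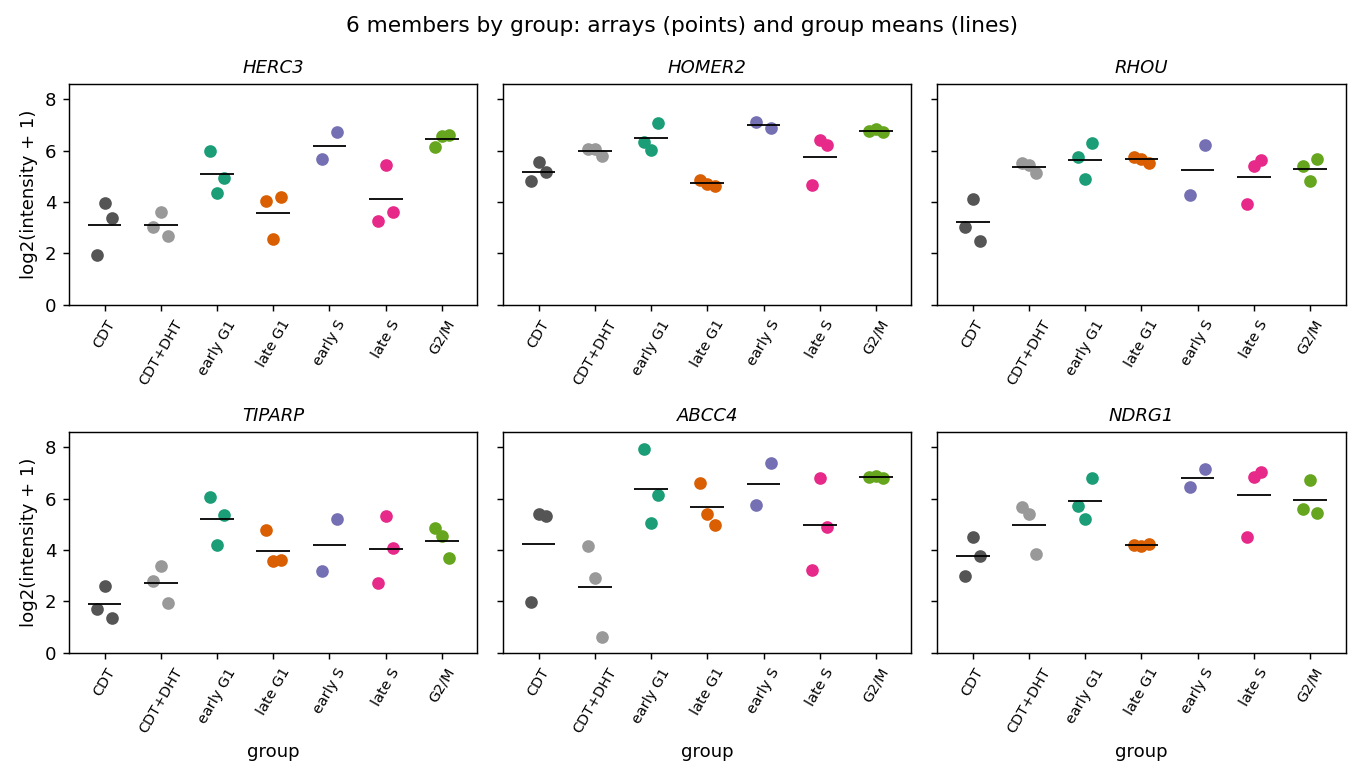
Levels, as log2(intensity + 1), of HERC3, HOMER2, RHOU, TIPARP, ABCC4 and NDRG1 on each array by group, with the group mean as a line. HERC3 is highest in early S and G2/M, HOMER2 and NDRG1 are lower in late G1 than in most other arrests, and the RHOU arrays of CDT+DHT lie above those of CDT.

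The arrests share medium, hormone dose and time, and each was compared with the mean of the other 4, in 5 comparisons made of the same 14 arrays. Each stage was reached with a different drug treatment, so stage and drug cannot be told apart among the arrests either. The members' median difference was -0.54 in late G1, with 7 of 31 members above 0 against 44.7% of all genes and a median of -0.09 over all genes. It was -0.93 without late G1 replicate 1, -0.34 without early S replicate 2 and -0.35 without late S replicate 2. The median was -0.39 in late S, but 0.17 without late S replicate 1, -0.79 without late S replicate 2 and -0.15 without early S replicate 2, so that its direction rests on 1 array. Early S (0.50), early G1 (0.35) and G2/M (0.17) had medians above 0, which shifted with single arrays to between 0.10 and 1.11, 0.14 and 0.64, and -0.03 and 0.28. The lowest early S median was without early S replicate 2 and the highest without early S replicate 1. For early G1 they were without early S replicate 1 and without early G1 replicate 2, and for G2/M without G2/M replicate 2 and without G2/M replicate 3. The early G1 median was also 0.14 without early G1 replicate 3 and 0.15 without late S replicate 1. The G2/M median was 0.01 without late S replicate 1, 0.08 without early G1 replicate 2 and 0.09 without early S replicate 1, and it was 0.26 without early S replicate 2 or late S replicate 2.

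HOMER2 fell in late G1 against the other arrests and was the 1 member of 31 that passed, where 0.69% of all genes passed as lower. The late G1 arrays stood at 4.85, 4.68 and 4.63. The G2/M arrays stood at 6.75, 6.84 and 6.74, those of early G1 at 6.33, 6.03 and 7.08, of early S at 7.10 and 6.89 and of late S at 4.65, 6.41 and 6.22. All late G1 arrays were below all arrays of early G1, early S and G2/M, but late S replicate 1 lay among them. The difference was -1.78 ± 0.39, 3.44-fold lower, with an adjusted p of 0.0364, and the late G1 level was near that of CDT (4.80, 5.57 and 5.16). Leaving out 1 array ended the call in 13 of 20 cases, with adjusted p of 0.119, 0.15 and 0.174 without late G1 replicates 1, 2 and 3. It was 0.0638 and 0.0637 without early S replicates 1 and 2, 0.0523 and 0.0582 without late S replicates 2 and 3, and 0.0545, 0.062 and 0.0572 without G2/M replicates 1, 2 and 3. It was 0.0542 and 0.056 without CDT+DHT replicates 1 and 2, and 0.06 without early G1 replicate 3. It was 0.0524 when every feature was tested and 0.107 when only the arrests were fitted.

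At an unadjusted p below 0.05, 11 members were lower in late G1 than in the other arrests, beside 7.7% of all genes. In 3 of them every late G1 array lay below every array of the other arrests, beside 1.28% of all genes. NDRG1, a protein induced by stress and differentiation, stood at 4.20, 4.17 and 4.25 in late G1 and at 5.71, 5.19 and 6.81 in early G1. In G2/M it stood at 5.60, 6.74 and 5.45, in early S at 6.44 and 7.14 and in late S at 4.49, 6.85 and 7.05. The late G1 arrays were close together and below the rest, and the difference was -1.98 ± 0.56 (adjusted p = 0.125). C1orf116, also known as specifically androgen-regulated gene, stood at 5.20, 2.66 and 4.60 in late G1 and between 5.33 and 6.62 in the other arrests, a difference of -1.74 ± 0.48 (adjusted p = 0.119). SLC45A3 was between 3.20 and 4.86 in the other arrests and differed by -1.37 ± 0.40 (adjusted p = 0.144). Neither NDRG1, C1orf116 nor SLC45A3 passed.

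In the other 4 comparisons among arrests no member passed in limma, beside 0% (early G1), 0% (early S), 0.0271% (late S) and 0.0217% (G2/M) of all genes that passed as higher. At an unadjusted p below 0.05, 2 members were higher in early G1 (1.18% of all genes), 4 in early S (1.79%) and 2 in G2/M (2.06%), and 2 were lower in late S (3.15%), counts that leaving out 1 array took to as few as 0 in early G1, early S and late S. Without late S replicate 2 they were 5 in early G1 and 7 in late S. GNMT in early S was the single member with every array above those of the other arrests (1.07% of all genes), at 4.04 and 3.90, a difference of 1.27 ± 0.68 (adjusted p = 0.95). The count of such members in early S was 9 without early S replicate 1, 2 without early S replicate 2 and 3 without early G1 replicate 3. The moderated F test for any difference among the 5 arrests called 0 members, beside 0.255% of all genes, and 8 members had an unadjusted p below 0.05, beside 6.89% of all genes. The lowest F test p-values were those of HOMER2 (0.00162, adjusted p = 0.206), HERC3 (0.00187), STK39 (0.00764) and EAF2 (0.0139).

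HERC3, STK39 and EAF2 differed among the arrests in different ways. HERC3 was at 5.67 and 6.71 in early S and 6.15, 6.57 and 6.62 in G2/M, against 4.04, 2.54 and 4.18 in late G1 and 3.27, 5.43 and 3.62 in late S, with early G1 between (5.99, 4.33 and 4.95). STK39, a kinase that regulates ion cotransporters, stood at 8.03, 8.32 and 8.03 in G2/M, 7.73 and 8.13 in early S, 7.65, 6.65 and 7.57 in early G1, 5.08, 7.72 and 7.26 in late S and 5.40, 6.03 and 6.20 in late G1. EAF2 was instead highest in early G1 (6.47, 3.50 and 5.83) and lowest in late G1 (3.62, 2.06 and 1.65). Its G2/M arrays stood at 4.03, 3.23 and 3.59, its early S arrays at 4.18 and 5.71 and its late S arrays at 3.77, 5.46 and 4.12. Late S replicate 1 was the lowest arrest array in STK39, and early G1 replicate 2 was the lowest early G1 array in EAF2 and STK39.

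Several members did not follow the rest. STEAP4, a metalloreductase, stood at 3.84, 2.49 and 1.90 in CDT and 2.61, 2.68 and 2.92 in late G1, with group means of 2.74 in both, and 0 of 17 DHT arrays lay above every CDT array. In early S it stood at 1.54 and 1.59, below every CDT array, a difference of -1.18 ± 0.65 (adjusted p = 0.912). TSC22D3, the glucocorticoid-induced leucine zipper protein, had 1 of 17 DHT arrays above every CDT array, with 3.33, 4.11 and 1.80 in CDT and 4.08, 3.62 and 1.59 in CDT+DHT. ZBTB16, a zinc finger factor also known as PLZF, had 2 of 17, and SLC45A3 6 of 17. PTGER4, a receptor of prostaglandin E2, had 7 of 17 and was between 3.12 and 4.93 on 19 of 20 arrays, with late S replicate 1 at 1.22. ORM1, a plasma protein made mainly in liver, and INPP4B, a phosphoinositide phosphatase, were near the floor, with a mean over all arrays of 1.72 and 1.48. LIFR, the leukemia inhibitory factor receptor, ranged from 0.01 in a CDT and in a CDT+DHT array to 5.25 in an early G1 array.

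Genes of cofactors and chaperones that act with the hormone receptor were read in the same comparisons. For 16 measured genes of pioneer factors, coregulators and chaperones, the median difference was -0.52 in CDT+DHT against CDT and between -0.54 (late S) and 0.00 (G2/M) in the arrests against CDT, where the members' medians were all above 0. None of the 16 passed in any of the 17 comparisons in limma, and at an unadjusted p below 0.05 the largest count in a comparison with CDT was 2 lower and 1 higher. Against CDT+DHT their median was 0.65 (G2/M), 0.40 (early G1), 0.28 (early S), 0.01 (late S) or -0.06 (late G1), in that order with 6, 3, 2, 1 and 4 genes higher and 1, 1, 2, 2 and 2 lower at that p. Their median thus had the opposite sign to the members' in the comparisons with CDT except G2/M (0.003). Against CDT+DHT the signs differed only in late G1 (-0.06, against 0.43 for the members). The 8 partners of ELL2 and EAF2 in elongation complexes had median differences from CDT of -0.42 in CDT+DHT, -0.58 in late G1 and 0.61 in early S, and 0 of 8 passed in any comparison, with at most 3 at an unadjusted p below 0.05 in 1 direction. KLK2 and KLK3, the kallikreins most used as readouts of the receptor, are given for reference with KLK4. KLK3 had a mean level of 7.57 in CDT, 8.76 in CDT+DHT, 10.07 in early G1 and 9.41 in late G1, and KLK2 of 5.75, 7.90, 8.73 and 8.25. KLK4 went another way, with 5.59 in CDT, 6.59 in CDT+DHT, 6.27 in early G1 and its lowest group mean, 5.35, in late G1. In the remaining arrests KLK4 was at 6.56 (early S), 6.05 (late S) and 5.92 (G2/M). KLK2 rose against CDT in the mean of the 6 DHT groups (2.51 ± 0.32, adjusted p = 0.00391), early G1 (2.97 ± 0.42, adjusted p = 0.0154), late G1 (2.50 ± 0.42, adjusted p = 0.0147) and late S (2.87 ± 0.42, adjusted p = 0.0102), comparisons in which no member passed. In CDT+DHT it differed from CDT by 2.15 ± 0.42 (adjusted p = 0.654). KLK3 differed from CDT by 1.18 ± 0.50 in CDT+DHT (adjusted p = 0.696), and in late G1 it differed by -0.10 ± 0.40 from the other arrests (adjusted p = 0.967), where the members' median was -0.54; the difference between these 2 values was not tested.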

How the data were processed

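The deposited values were intensities of array features, for which the submitters' processing notes name the authors' tool as Affymetrix Expression Console 1.1, from RNA amplified with a whole-transcriptome kit and labelled with biotin, per the labels' protocols. How probes were summarised and whether arrays were normalized is not given in the sources used here. Intensities were taken as linear, with 0 values at or below 0, and log2(intensity + 1) was used. Of 33297 features, 21214 were in the annotation used, 19460 with 1 gene symbol and 1754 with several, which were left out; 19429 matched RefSeq by Entrez ID. In 769 genes with several features the brightest was used, leaving 18417 genes. One fit over all 20 arrays (limma 3.58.1, R 4.3.3; lmFit with 1 coefficient per group, then eBayes, two-sided) gave 17 comparisons and an F test. P-values were adjusted by Benjamini-Hochberg over the 18417 genes, and adjusted p below 0.05 was called. The fit was tested on simulated data. The number of arrays limits the precision.

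The members and lists were chosen with earlier results of these data known. Values by array were given for members that passed in a comparison, the 3 members with the largest difference per direction and comparison among those whose arrays do not overlap, and the 4 members with the lowest F test p. ACSL3, SORD and KCNN2 had no single-symbol feature in the annotation used. Numbered replicates were checked for pairing. Alternatives are described in the closing section, and the count of members whose arrays do not overlap under each was added after the data were examined.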

Additional observations from a re-analysis of the deposited data

Results flagged for a closer look

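HOMER2 is set apart for a closer look because its level in late G1 differed from the mean of the other 4 arrests by a test of that difference itself, at -1.78 on the log2 scale.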

How the results depend on the processing

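Every median of the members kept its sign under each alternative that used all arrays, and the counts of calls moved most. HERC3 in G2/M against CDT+DHT passed in 21 of 31 alternatives (2.10 to 3.59, adjusted p from 0.00186 to 0.166) and HOMER2 in late G1 against the other arrests in 15 of 31 (-1.98 to -1.37, adjusted p from 0.00319 to 0.174). Of the members, quantile normalization called 1 in G2/M against CDT, and centring the arrays 2. A pseudocount of 16 called 2 in G2/M against CDT, 5 in G2/M against CDT+DHT, 3 in late G1 against the other arrests and 2 in the F test. It lowered the median differences from CDT to 0.95 (early G1), 0.20 (late G1), 1.08 (early S) and 0.75 (G2/M), and from CDT+DHT to 0.67 in early G1 and 0.72 in early S. It also took CDT+DHT against CDT from 0.34 to 0.10, the mean of the 6 DHT groups from 1.15 to 0.67, late S against CDT from 1.01 to 0.49 and late G1 against CDT+DHT from 0.43 to 0.15. With only the 5879 genes of mean log2 4 or more, 17 members among them, 1 was called in the mean of the 6 DHT groups, in late G1 and G2/M against CDT and in the F test, 5 in G2/M against CDT+DHT and 3 when late G1 was set against the other arrests. With every feature tested, both calls were lost (0 and 0, adjusted p = 0.0602 for HERC3 and 0.0524 for HOMER2). eBayes with trend and robust called 1 in the mean of the 6 groups and in the F test, 3 in G2/M against CDT, 7 in G2/M against CDT+DHT and 4 with late G1 set against the other arrests. With arrayWeights, 2 were called in late S against CDT, G2/M against CDT and the F test, 4, 7 and 11 in late G1, late S and G2/M against CDT+DHT, and 7 and 1 in late G1 and late S against the other arrests. Fits of the compared groups alone called 6 in G2/M against CDT+DHT and 0 with late G1 set against the other arrests (HOMER2 adjusted p = 0.107). The 4 arrays lowest on the shared axis were late S replicate 1, CDT replicate 1, early G1 replicate 2 and CDT+DHT replicate 3 (-1.03). Late S replicate 2, at 1.79, was kept when these 4 were left out. Without the 4 arrays, 2 and 7 were called in these comparisons, and the medians against CDT were 1.61 (early G1), 0.36 (late G1), 1.42 (early S), 1.33 (late S) and 1.41 (G2/M). Set against the other arrests, they came to -1.004 (late G1), 0.11 (late S, a change of sign), 0.01 (G2/M), 0.20 (early S) and 0.40 (early G1).

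Same-numbered replicates did not deviate together in the median (correlation -0.03 over 57 pairs, against 0.02 over 114 other pairs). Single same-numbered pairs ran from -0.72 to 0.71, a spread too wide for this check to decide whether the numbers pair the arrays. With the replicate number as a block, 0 members were called in G2/M against CDT+DHT (HERC3 adjusted p = 0.0625) and 0 with late G1 set against the other arrests (HOMER2 -1.80, adjusted p = 0.0606).

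Leaving out each array in turn gave medians of 1.28 to 2.54 in early S and 0.42 to 1.55 in late S against CDT, 0.82 to 2.14 in early S against CDT+DHT, and 0.10 to 1.11 in early S and -0.79 to 0.17 in late S against the other arrests. It gave counts of calls of 0 to 2 in G2/M against CDT, 0 to 3 in G2/M and 0 to 1 in late S against CDT+DHT, and 0 to 4 with late G1 set against the other arrests. Members below an intensity of about 1 cannot be followed further down.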
